A study of Homo sapiens with 24 samples.

Results

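The clustered protocadherins are the PCDHA, PCDHB and PCDHG genes of chromosome 5. Members were all genes on that chromosome whose symbol begins with PCDHA, PCDHB or PCDHG, pseudogenes included, and 60 of the 61533 genes in the count table met this rule. They were 53 protein-coding genes, 6 pseudogenes and the antisense RNA gene PCDHB1-AS1, which the spelling of its symbol brought in. The stretch was selected on measured values, its low level in the SoF line, so every difference between SoF and the wt or Ctrl lines is given below as a description with no test. The change over time and the difference between Ctrl and wt were not used for the choice and were tested.

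The assay was 4sU-seq: cells took up 4-thiouridine (200 µM) for the last 1 h, and the RNA that had incorporated it was purified and sequenced. The cells were U2OS, a human osteosarcoma line, carrying the glucocorticoid receptor (GR) with a HaloTag as wild type (wt), as the RNA-binding mutant SoF (K492A) or as the mutant Ctrl (R470A), which controls for the weaker DNA binding of SoF. Dexamethasone, the synthetic hormone that activates GR, was added to each of the 3 lines at 100 nM for 1, 2 or 3 h, and 0.01% ethanol stood for 0 h (its duration is not stated). There were 2 libraries for each of the 12 groups and 24 libraries in all. The constructs were driven by a CMV promoter, and each line was 1 sorted pool of stably integrated cells, so construct and pool cannot be told apart, and nothing states that the 2 libraries of a group came from separate cultures. The p-values therefore measure the spread between these libraries, which may be technical. By the paper's methods, replicates of a sample went through biotinylation and pulldown as pairs. The spread within a group may thus leave out differences between pulldowns. In bulk samples fewer expressing cells and less RNA per cell cannot be told apart.

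Clustered protocadherins are cadherin-like cell surface proteins that bind the same isoform on a facing cell, and they are best known from neurons, where each cell transcribes its own small set and uses it to tell its own branches from those of others. Each alpha and gamma gene has a variable first exon with its own promoter, which codes for the extracellular and membrane-spanning parts and is spliced to constant exons that all genes of that cluster share. Each beta gene is a single exon without a constant part. The C-type genes at the ends of the alpha and gamma clusters are used more evenly between cells than the others. Promoter choice involves the architectural protein CTCF, cohesin and DNA methylation, and most of these promoters carry a short conserved sequence with the core CGCT.

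The members spanned 727 kb, from 140786136 to 141512977 of chromosome 5 (hg38), all on the plus strand except PCDHB1-AS1. PCDHA held 16 members over 226 kb, PCDHB 20 over 203 kb and PCDHG 24 over 182 kb. The alpha constant exons lay at 140978949 to 140979007, 140982475 to 140982563 and 141009627 to 141012347 and held 2869 bases. The gamma constant exons lay at 141494807 to 141494865, 141505393 to 141505481 and 141510947 to 141512975 and held 2177 bases. For orientation, PCDHB17P, a pseudogene of the beta cluster (ENSG00000255622.3), lay at 141155996 to 141158388, PCDHB15 (ENSG00000113248.6), the last beta gene, at 141245395 to 141249365, and PCDHGC3 (ENSG00000240184.7), the first gamma C-type gene, began at 141475947.

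Promoter windows from 250 bases before to 50 bases after the annotated start were at hand for 47 of the 60 members (RefSeq, GRCh38.p14). The letters CGCT stood on the gene's strand in 46 of these 47 windows, against 54.3% of all 35116 windows of that length. Longer forms were then read from the windows themselves, so they are a description of this set. TGTCGCT was found on either strand in 10 of 13 alpha windows (1.76% of all windows), TGGCGCT in 13 of 14 beta windows (4.08%), and CCGCTGT in 11 of 20 gamma windows (3.89%). CGCT is part of each of these forms. The box began 41 to 84 bases before the annotated start in alpha, 0 to 82 in beta and 41 to 96 in gamma, over the members whose window held it with room on both sides. The windows below are those of members whose levels are described in what follows, each with 20 bases on both sides of the box, which is in capitals, 5′ to 3′ on the plus strand of GRCh38.p14.
PCDHA10, chr5:140855834-140855880: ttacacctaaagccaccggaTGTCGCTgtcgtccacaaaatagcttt
PCDHA12, chr5:140875237-140875283: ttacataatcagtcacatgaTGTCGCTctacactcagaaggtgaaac
PCDHB2, chr5:141094537-141094583: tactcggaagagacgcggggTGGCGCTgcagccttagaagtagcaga
PCDHB5, chr5:141135172-141135218: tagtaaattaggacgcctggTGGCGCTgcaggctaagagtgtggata
PCDHB8, chr5:141177770-141177816: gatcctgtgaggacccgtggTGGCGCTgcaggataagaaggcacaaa
PCDHB13, chr5:141213858-141213904: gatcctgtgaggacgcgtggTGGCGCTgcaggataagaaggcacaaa
PCDHB15, chr5:141245307-141245353: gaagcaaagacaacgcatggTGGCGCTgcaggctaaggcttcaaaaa
PCDHGB4, chr5:141387612-141387658: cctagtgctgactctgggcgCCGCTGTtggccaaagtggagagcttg
PCDHGB5, chr5:141397858-141397904: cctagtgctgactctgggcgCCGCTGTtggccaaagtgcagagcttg
PCDHGC3, chr5:141475875-141475921: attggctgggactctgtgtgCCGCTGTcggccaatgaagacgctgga

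Total counts per library ranged from 8106036 to 15820806, and a level is a gene's count over its library's TMM-adjusted total, in CPM. Osteoblast and mesenchymal markers were present in every library (COL1A1 250 to 1008 CPM, VIM 490 to 913 CPM), except COL1A2, which was at or near 0 (up to 0.602 CPM). The epithelial marker KRT19 and the neuronal marker STMN2 reached at most 0.101 and 0.106 CPM, while other genes of the same lists were present: SNAP25 at 15.1 to 72.4 CPM, SYP at 1.93 to 6.21 and RBFOX3 at 5.81 to 14.1 among the neuronal genes, and CDH1 at 0.946 to 8.09 among the epithelial ones. NR3C1, which encodes GR and whose endogenous and introduced copies are counted together, averaged 771 CPM in wt, 2855 in SoF and 3503 in Ctrl, and its part in the results was not tested. These are RNA levels and do not measure the receptor protein. The authors had picked the sorted pools for similar nuclear GR protein under dexamethasone, judged by immunofluorescence. Markers did not share an order of lines, and means are given here for wt, SoF and Ctrl in turn. COL1A1 (646, 397 and 641 CPM), SPARC (286, 235 and 279), VIM (653, 577 and 763) and RUNX2 (111, 96.9 and 99.3) were lowest in SoF. So were the epithelial genes EPCAM (2.50, 1.49 and 2.05 CPM) and CDH1 (4.11, 3.69 and 4.85), and the blood and vessel gene CD34 (6.08, 3.63 and 5.09 CPM). COL1A2, SYP and RBFOX3 were lowest in wt and highest in Ctrl. SNAP25 (31.2, 43.4 and 36.2 CPM) and the blood gene PTPRC (0.849, 1.16 and 0.808 CPM) were instead highest there. CDH11 (21.15, 20.75 and 19.53 CPM) and ALPL (23.53, 22.75 and 23.65 CPM) differed little. The part of these markers was not tested either.

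The counts of the alpha and gamma members are not independent of each other. Reads that overlapped several genes appear in the count of each: the overlapping genes ANKHD1 and ANKHD1-EIF4EBP3 outside the clusters had 24119 and 23644 counts in all. Each of the 15 alpha and 22 gamma coding genes thus carries the reads of its cluster's constant exons, and the lowest coding member in a library is an upper limit for these shared reads. That limit made up 58.2% to 97.2% of a coding alpha member's counts (median 79.9%) and 44.8% to 98.6% of a coding gamma member's (median 86.1%). The counts above it are a lower limit for reads from the member's own exons. They are called own reads here, although they may include unspliced RNA begun at an upstream promoter, and PCDHA10 with PCDHA14, and PCDHGB4 with PCDHGA8, also overlap each other. Beta genes are near-identical in places, so reads may have been assigned between paralogs.

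The beta genes, which share no constant exon, gave the plainest picture of the stretch. Per kb of exon, PCDHB5 (3.77 CPM per kb over all libraries) and PCDHB2 (3.32) were highest, followed by PCDHB8 (2.05) and PCDHB11 (1.69). PCDHB1 had 15 counts in the 8 wt libraries, 11 in SoF and 9 in Ctrl, and PCDHB1-AS1 had 15, 6 and 10, so both failed the filter on low counts in every fit. The summed beta level had a median of 86.2 CPM in wt (72.4 to 120), 57.0 in SoF (44.2 to 63.3) and 75.4 in Ctrl (64.4 to 86.4). All 8 SoF libraries lay below all 8 libraries of each other line. On the log2 scale the SoF sum was lower than wt by -0.68 (means of 8 libraries a line, SD between replicates of a group 0.20) and than Ctrl by -0.44.

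PCDHB17P, which marks the stretch, was the member furthest below wt in SoF. Its level in SoF was 1.62 and 1.203 CPM at 0 h, 1.41 and 1.35 at 1 h, 1.22 and 0.905 at 2 h, and 1.05 and 1.63 at 3 h. In the wt line PCDHB17P was at 3.98 and 4.77 at 0 h, 4.16 and 2.94 at 1 h, 4.04 and 3.21 at 2 h, and 2.91 and 3.77 at 3 h. The SoF libraries stayed below every wt library and below every Ctrl library (2.27 to 3.37 CPM), at every time. The log2 difference was -1.50 (SE 0.15) from wt and -1.09 (SE 0.15) from Ctrl.

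PCDHB9 and PCDHB13 were also low in SoF. PCDHB9, named here after its values were seen, had a median of 1.26 CPM in SoF (0.828 to 1.94), 3.09 in wt (2.47 to 4.77) and 3.06 in Ctrl (1.89 to 3.54). Its log2 difference was -1.28 (SE 0.19) from wt and -1.06 (SE 0.19) from Ctrl, and the SoF libraries did not overlap those of wt but touched those of Ctrl. PCDHB13 had a median of 3.60 CPM in SoF (2.53 to 4.81), 7.21 in wt (6.24 to 10.8) and 6.05 in Ctrl (4.12 to 6.57), and its highest SoF library lay above the lowest Ctrl library.

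PCDHB15 was low in both mutant lines. Its median was 1.43 CPM in SoF (0.516 to 1.78), 3.25 in wt (2.09 to 4.85) and 1.96 in Ctrl (0.991 to 2.75). The SoF difference was -1.43 (SE 0.25) from wt and -0.56 (SE 0.26) from Ctrl on the log2 scale. PCDHB8 had medians of 4.75 CPM in SoF, 7.13 in wt and 4.76 in Ctrl, and its SoF and Ctrl libraries overlapped over most of their ranges.

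The most abundant beta genes differed less than PCDHB17P, PCDHB9 and PCDHB13. From wt, PCDHB2 differed by -0.54 (SE 0.12) and PCDHB5 by -0.66 (SE 0.13), where the median of the 16 beta members tested was -0.66. PCDHB2 had a median of 10.7 CPM in SoF (7.51 to 12.9), 14.8 in wt (11.9 to 19.2) and 14.9 in Ctrl (12.3 to 16.9). PCDHB5 had 9.80 CPM in SoF (7.42 to 12.4), 16.0 in wt (11.3 to 20.1) and 13.0 in Ctrl (10.6 to 14.8). For both genes SoF overlapped the other lines at the edge of its range.

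Not every beta member was low in SoF. The pseudogene PCDHB18P had a median of 3.47 CPM in SoF (2.17 to 4.13), 3.23 in wt (2.10 to 4.16) and 3.59 in Ctrl (2.64 to 4.86), with a log2 difference from wt of 0.07 (SE 0.17). Its neighbour PCDHB19P, also a pseudogene and named after its values were seen, differed from wt by 0.30 (SE 0.28). These 2 genes lay between PCDHB14 and PCDHB15, which were lower in SoF than in wt by -0.61 (SE 0.14) and -1.43 (SE 0.25).

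**Figure D1:**
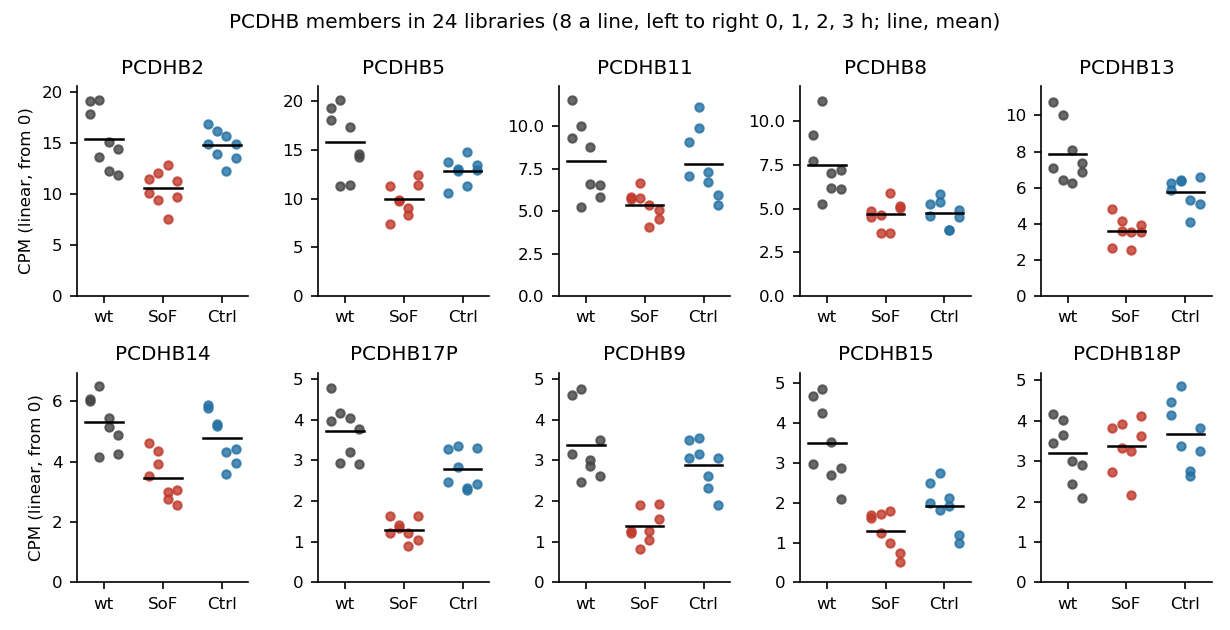
CPM (vertical axis, linear from 0) of 10 PCDHB members in the 24 libraries, 8 for each line on the horizontal axis, placed from left to right by 0, 1, 2 and 3 h within a line, with a bar at the mean. PCDHB17P stayed between 0.905 and 1.63 CPM in SoF, below all wt and Ctrl libraries, while PCDHB18P overlapped in all 3 lines.

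The alpha members were lower in SoF by a similar amount to each other, and that similarity came with the reads they share. Their lowest coding member, the limit for shared reads, had a median of 4.35 CPM in SoF (2.84 to 4.83), 5.73 in wt (4.68 to 7.89) and 5.31 in Ctrl (4.33 to 6.37). The reads above it, summed over the 15 coding genes, had a median of 23.0 CPM in SoF (19.3 to 29.0), 22.8 in wt (17.8 to 31.6) and 25.0 in Ctrl (19.5 to 29.1). With the shared reads counted in each gene the SoF sum was lower than wt by -0.41 on the log2 scale (SD 0.16), and with them counted once the difference was -0.08 (SD 0.10). The mean of own reads was lower in SoF than in wt for 7 of 15 coding alpha genes.

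Among the alpha genes PCDHA12 had the most own reads per kb of own exon (1.44 CPM per kb), followed by PCDHA11 and PCDHA6 (both 0.86). PCDHA12 had medians of 9.67 CPM in wt, 7.84 in SoF and 8.78 in Ctrl, of which the own reads made up 3.97, 3.52 and 3.66 CPM. PCDHAC1 and PCDHAC2 are the alpha C-type genes, and PCDHAC2 is known for the spacing of serotonergic axons. For PCDHAC1 the medians were 8.93 CPM in wt, 6.91 in SoF and 8.50 in Ctrl, and 2.83, 2.73 and 3.00 CPM of own reads. PCDHAC2 had 8.37, 7.09 and 7.87 CPM in wt, SoF and Ctrl, and 2.33, 2.38 and 2.29 CPM of own reads. The own reads of both C-type genes overlapped between the lines.

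The gamma sums had their lowest medians in SoF and their highest in Ctrl, while the pseudogenes PCDHGB8P and PCDHGB9P were lowest in wt (means of 0.402 and 0.204 CPM in wt, 0.801 and 0.445 in SoF, 1.42 and 0.964 in Ctrl). For shared gamma reads the limit had a median of 6.21 CPM in SoF (4.04 to 7.81), 8.80 in wt (7.42 to 10.2) and 11.2 in Ctrl (8.03 to 12.8). Own reads summed over the 22 coding genes had medians of 34.0 CPM in SoF (26.4 to 43.8), 38.1 in wt (34.3 to 53.6) and 50.5 in Ctrl (41.9 to 80.7). Counted once, the gamma total in SoF differed from wt by -0.23 and from Ctrl by -0.68 on the log2 scale (SD 0.22), against -0.44 and -0.76 when every gene carried the shared reads. The mean of own reads was lower in SoF than in Ctrl for 21 of the 22 genes and lower than in wt for 12.

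PCDHGC3 was the gamma gene with the most own reads. This C-type gene, whose cytoplasmic part is known to bind the scaffold AXIN1, had medians of 14.1 CPM in SoF (11.9 to 17.2), 21.2 in wt (17.7 to 24.7) and 21.8 in Ctrl (18.1 to 25.1), and SoF lay below every library of the other lines. Its own reads alone were 7.33 to 9.36 CPM in SoF, 10.3 to 14.7 in wt and 8.97 to 13.2 in Ctrl, so that without the shared reads SoF stayed below wt and touched the range of Ctrl.

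The other gamma C-type genes lay close to the limit for shared reads. PCDHGC4, which is known to keep interneurons alive in the mouse, had medians of 7.05 CPM in SoF, 9.23 in wt and 12.3 in Ctrl, but only 0.751, 0.453 and 0.981 CPM of own reads. PCDHGC5 had 0.731, 0.554 and 0.972 CPM of own reads in SoF, wt and Ctrl. Per kb of own exon, PCDHGC3 stood at 3.24 CPM against 0.28 for PCDHGC4 and 0.26 for PCDHGC5.

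PCDHGB4, PCDHGB5 and PCDHGB1 came next and did not share an order of lines. PCDHGB4 had medians of 5.18 CPM of own reads in wt, 3.35 in SoF and 5.00 in Ctrl. PCDHGB1 had 3.26 CPM in wt, 2.47 in SoF and 2.59 in Ctrl. PCDHGB5 had 1.81 CPM in wt (0.955 to 2.47), 2.56 in SoF (2.34 to 3.62) and 6.02 in Ctrl (4.36 to 7.28), so its Ctrl libraries lay above all others, and SoF overlapped wt only narrowly. PCDHGA8 and PCDHGA4, the remaining gamma genes with high counts, had medians of 2.73 and 2.19 CPM of own reads in wt, 2.02 and 1.63 in SoF, and 2.57 and 3.26 in Ctrl, and all 3 lines overlapped.

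**Figure D2:**
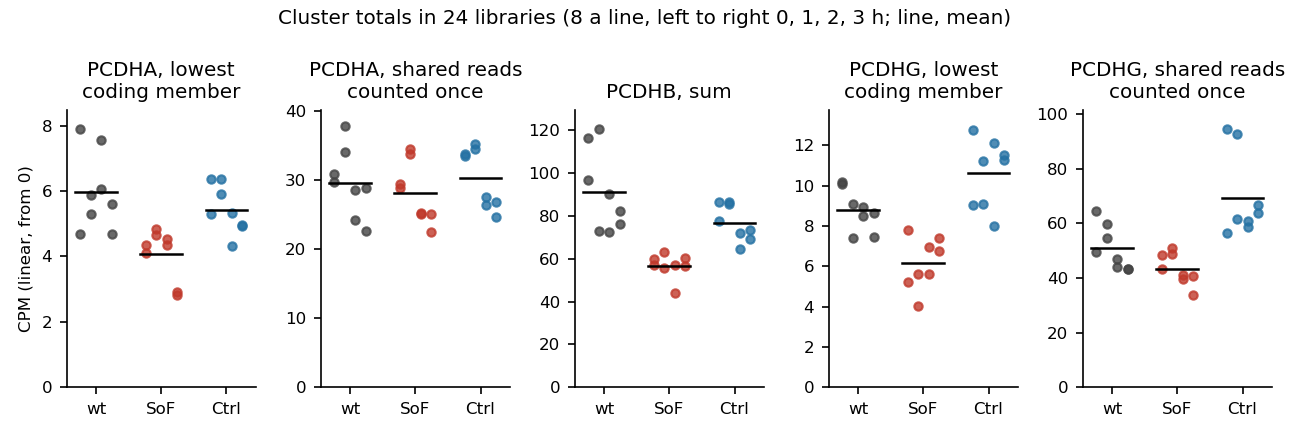
CPM (vertical axis, linear from 0) of the lowest coding alpha member, the alpha cluster with shared reads counted once, the beta sum, the lowest coding gamma member and the gamma cluster with shared reads counted once, in 8 libraries for each line ordered by 0, 1, 2 and 3 h, with a bar at the mean. The alpha total with shared reads counted once overlapped in the 3 lines, while the beta sum in SoF (44.2 to 63.3 CPM) lay below both other lines.

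Of the 54 members that passed the filter when lines were compared with time ignored, 50 were lower in SoF than in both other lines, a direction held by 34.7% of all 21122 genes tested. Since this contrast was the ground for the choice, nothing is read from the count. The median log2 difference of the 54 members was -0.45 from wt and -0.55 from Ctrl, against -0.01 and 0.00 over all genes tested. All 8 SoF libraries lay below all 8 wt libraries for 10 of 58 members (0.414% of 23651 genes) and below all 8 Ctrl libraries for 20 of 58 (0.461%). The first set held PCDHB17P, PCDHB9, PCDHB10, PCDHB13 and PCDHB15 with 5 gamma genes, and the second held PCDHB17P and 19 gamma members, which share reads. The 6 members that did not pass were PCDHA14, PCDHB1, PCDHB1-AS1, PCDHB4, PCDHB6 and PCDHGB9P.

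Genes around the stretch are described for orientation only, since the members, unlike these genes, were chosen for a low level in SoF. Among 36 genes tested within 1 Mb on either side, the median log2 difference of SoF was -0.03 from wt and -0.05 from Ctrl, and 16 of 36 were lower than both. ZMAT2, HARS2 and HARS1, the nearest coding genes before PCDHA1, differed from wt by -0.09, -0.05 and 0.27. DIAPH1, HDAC3 and RELL2, the nearest after the gamma cluster, differed by -0.04, -0.03 and -0.31. TAF7, a gene for a subunit of the general transcription factor TFIID that lies between the beta and gamma clusters, differed by -0.17 from wt and -0.28 from Ctrl, with means of 122 CPM in wt, 109 in SoF and 132 in Ctrl. Between the clusters the other tested genes were ENSG00000272070 (-0.37 from wt, SE 0.21, and -0.59 from Ctrl, SE 0.21) and ENSG00000288095 (0.00 and -0.28, SE 0.26 each), so all 3 lay below Ctrl. PCDH1, a non-clustered protocadherin gene beyond the gamma cluster, named after its values were seen, differed by -0.58 (SE 0.29) from wt and -0.42 (SE 0.29) from Ctrl.

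**Figure D3:**
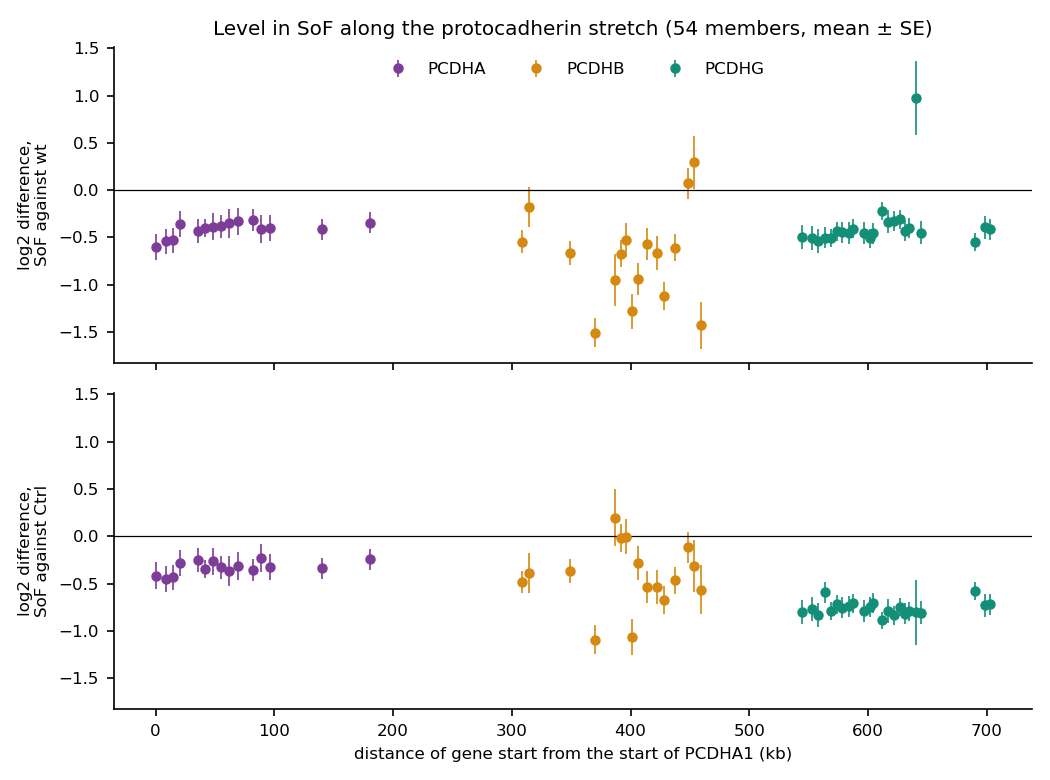
Log2 difference of SoF from wt (upper panel) and from Ctrl (lower panel), with SE, for the 54 members tested, against the distance of each gene start from the start of PCDHA1 in kb (horizontal axis). The alpha and gamma points form even rows below 0, the beta points range from -1.50 to 0.30 against wt, and the high gamma point against wt is the pseudogene PCDHGB8P (0.97, SE 0.39).

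At 0 h the sums of all 3 clusters, with shared reads in every alpha and gamma gene, were lower in SoF than in wt. The ratios of these sums moved in different directions at later times. The log2 ratio of the summed beta level to wt was -0.87 at 0 h, -0.70 at 1 h, -0.69 at 2 h and -0.44 at 3 h. For the alpha sum, with shared reads in every gene, it went from -0.42 at 0 h to -0.61 at 3 h, and for the gamma sum from -0.56 to -0.19. Against Ctrl the ratios at 0 h and 3 h were -0.38 and -0.57 for alpha, -0.49 and -0.29 for beta and -0.74 and -0.71 for gamma. With shared reads counted once, the alpha ratios to wt at 0 h and 3 h were -0.05 and -0.12 (SD 0.10). The gamma ratios to wt were then -0.31 and -0.22 (SD 0.22). Counted once, the ratios to Ctrl were -0.21 and -0.11 for alpha and -0.71 and -0.81 for gamma. In wt the beta sum was 96.7 and 116 CPM at 0 h and 76.2 and 82.3 at 3 h. In SoF it was 57.1 and 59.6 CPM at 0 h and 56.7 and 60.3 at 3 h. The 0 h and 3 h libraries overlapped in SoF and did not in wt, with a SoF library at 44.2 CPM in between, at 2 h. These ratios rest on 2 libraries a group and were not tested as sums.

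Ctrl and wt were compared to ask whether the stretch also differed between 2 lines that were not the ground for its choice. Across 54 members, 11 differed (edgeR quasi-likelihood test, adjusted p under 0.05), against 4.77% of all genes tested. All 7 that were higher in Ctrl belonged to PCDHG (2.11% of all genes were called higher) and all 4 that were lower belonged to PCDHB (2.66% lower), while none of 15 alpha members was called in edgeR, with 0 at an unadjusted p under 0.05. DESeq2 called 15 members. Calls among coding gamma genes are not independent, since these genes carry the same shared reads. The limit for those reads was higher in Ctrl than in wt by 0.27 on the log2 scale (SD 0.25). The median log2 difference was 0.31 for gamma, -0.26 for beta and -0.08 for alpha members, against 0.00 for all genes.

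PCDHGB5 led the gamma genes. Its level was 14.3 to 18.5 CPM in Ctrl (median 17.2), 9.17 to 12.1 in wt (median 10.5) and 7.66 to 11.3 in SoF (median 8.62), with no overlap between Ctrl and wt. It was higher in Ctrl by 0.67 on the log2 scale (SE 0.09, adjusted p = 8.33e-05 in edgeR). All 8 Ctrl libraries lay above all 8 wt libraries for only 2 of 58 members (0.44% of all genes), PCDHGB5 and PCDHGB8P.

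PCDHGB8P, a pseudogene with no constant exon, had a median of 1.24 CPM in Ctrl (0.901 to 2.59) and 0.366 in wt (0 to 0.846). It was higher by 1.77 (SE 0.37, adjusted p = 0.00507 in edgeR) and rests on 120 counts in Ctrl and 42 in wt. PCDHGB8P passed the filter on low counts mainly through its Ctrl libraries, where it was high, so its call is not independent of that filter. With no filter the call remained. PCDHGB6 was higher by 0.51 (SE 0.10, adjusted p = 0.00326 in edgeR) and PCDHGA10 by 0.44 (SE 0.10, adjusted p = 0.00741 in edgeR). Their own reads, 0.853 and 0.831 CPM as medians in wt, were 2.53 and 2.09 CPM in Ctrl.

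The 7 called gamma genes were neighbours in the order of the cluster, from PCDHGB5 to PCDHGB8P. The mean of own reads was higher in Ctrl than in wt for 19 of 22 coding gamma genes. Of the neuronal markers, RBFOX3 lay higher in Ctrl (10.8 to 14.1 CPM) than in wt (5.81 to 9.63), without overlap. SNAP25 (22.2 to 58.3 CPM in Ctrl, 15.1 to 53.4 in wt) and SYP (3.16 to 6.21 and 1.93 to 5.52) overlapped between these lines. STMN2 was at 0 in wt and near 0 in Ctrl (mean 0.0132 CPM, up to 0.106). The part of such markers in the gamma difference was not tested. PCDHGC3 was not called (log2 difference 0.03, SE 0.09), nor was PCDHGB1 (0.09, SE 0.11).

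Among beta genes, PCDHB8 had a median of 4.76 CPM in Ctrl (3.76 to 5.81) and 7.13 in wt (5.25 to 11.2), and was lower by -0.65 (SE 0.15, adjusted p = 0.00889 in edgeR). PCDHB7 was lower by -1.15 (SE 0.28, adjusted p = 0.0153 in edgeR) on 49 counts in Ctrl and 130 in wt. PCDHB10 and PCDHB15 were lower by -0.66 (SE 0.17) and -0.86 (SE 0.24), with adjusted p = 0.0219 and 0.0336 in edgeR, and PCDHB10, named after its values were seen, had medians of 1.77 CPM in Ctrl and 2.47 in wt. No beta gene had all Ctrl libraries below all wt libraries (0.474% of all genes did). PCDHB17P had a difference of -0.41 (SE 0.14, adjusted p = 0.0938 in edgeR).

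The number of calls between Ctrl and wt rested on the model. It was 24 with an additive time term, which called 3965 of all 21122 genes against 1007 without it, and 6 with no filter on low counts, which called 583 of 48707 genes. It was 7 without wt 2 h replicate 1 or without Ctrl 1 h replicate 2.

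**Figure D4:**
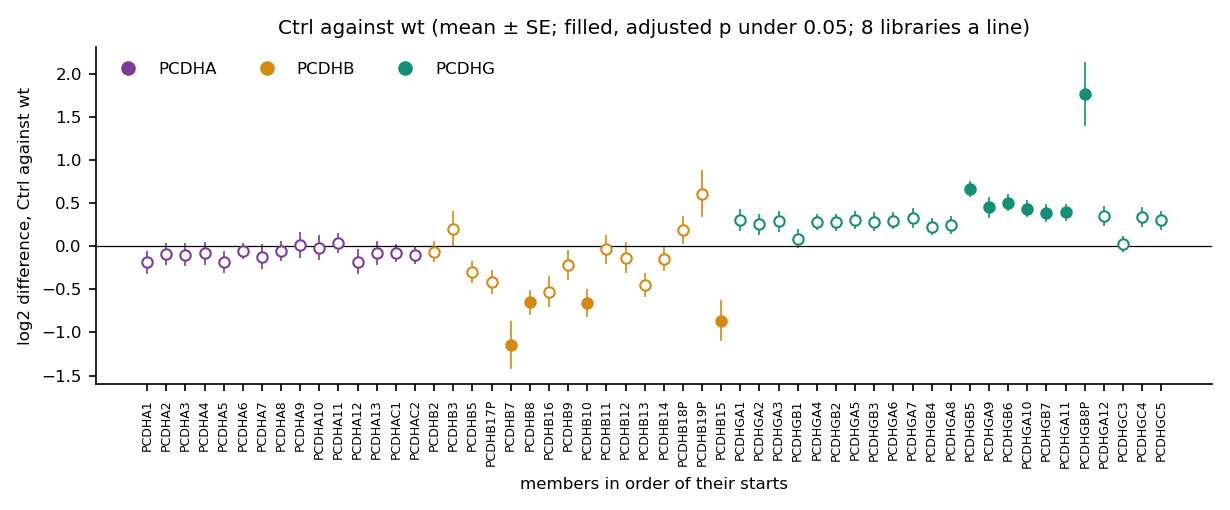
Log2 difference between Ctrl and wt (vertical axis, with SE) for 54 members in the order of their starts (horizontal axis), with 8 libraries for each line and filled points for an adjusted p under 0.05. The filled gamma points run from PCDHGB5 (0.67) to PCDHGB8P (1.77), and the 4 filled beta points lie below 0.

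The response to dexamethasone was first tested over the 3 lines together, with line as an additive term and 6 libraries per time. At 1 h no member of 58 was called in edgeR (3 at an unadjusted p under 0.05, and 0 in DESeq2), against 2.06% of all genes (0.895% higher, 1.16% lower). At 2 h 6 members were called, all lower (34.4% of all genes were called, 17.4% higher and 17% lower). At 3 h 16 were called, all lower (45.1% of all genes, 23.2% higher and 21.9% lower). The share of members called, 10.3% at 2 h and 27.6% at 3 h, was below that of all genes called in either direction. Against the genes called lower alone, it was below 17% at 2 h and above 21.9% at 3 h. Calls among coding alpha genes are not independent, since these genes share reads. The median log2 change of the members at 3 h was -0.18 against -0.03 for all genes tested.

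Of the 16 members lower at 3 h, 11 were alpha members, 3 were beta genes and 2 were gamma pseudogenes. No coding gamma gene was called. PCDHA10 had a mean of 8.17 CPM at 0 h (6.56 to 10.3), 8.57 at 1 h, 6.65 at 2 h and 5.91 at 3 h (4.04 to 6.93), a log2 change of -0.47 at 3 h (SE 0.11, adjusted p = 0.00136 in edgeR). PCDHA9 fell by 0.48 (SE 0.13) and PCDHA12 by 0.46 (SE 0.13). The C-type gene PCDHAC1 was called (-0.28, SE 0.11, adjusted p = 0.0381 in edgeR).

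Shared and own alpha reads were also described over time, and neither was tested. The limit for shared alpha reads averaged 5.45 CPM at 0 h, 5.49 at 1 h, 5.36 at 2 h and 4.32 at 3 h. Its libraries overlapped widely between 0 h (4.11 to 7.89, median 5.00) and 3 h (2.84 to 5.59, median 4.80). Own reads summed over the 15 coding alpha genes averaged 25.1 CPM at 0 h (22.7 to 27.4), 29.0 at 1 h (27.3 to 31.6), 20.7 at 2 h (18.0 to 22.9) and 20.6 at 3 h (17.8 to 23.0). The 1 h libraries lay above all libraries of 2 and 3 h, and the 0 h libraries overlapped those of 2 and 3 h only at their edges.

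PCDHB15 changed most among beta genes. It had 2.97 and 4.69 CPM in wt at 0 h and 2.09 and 2.87 at 3 h. In SoF it had 1.62 and 1.70 CPM at 0 h and 0.727 and 0.516 at 3 h. In Ctrl it had 2.50 and 2.00 CPM at 0 h and 1.19 and 0.991 at 3 h. In each line both 3 h libraries lay below both 0 h libraries, and over the lines the log2 change was -0.92 (SE 0.20, adjusted p = 0.000373 in edgeR).

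PCDHB14 fell from a mean of 5.32 CPM at 0 h to 4.04 at 2 h and 3.86 at 3 h (log2 change -0.46 at 3 h, SE 0.13, adjusted p = 0.00401 in edgeR). PCDHB11 fell from 8.09 CPM at 0 h to 5.54 at 3 h (-0.54, SE 0.15, adjusted p = 0.00466 in edgeR). PCDHB12 and PCDHB18P were called at 2 h only, with changes of -0.49 (SE 0.18) and -0.49 (SE 0.16). The most abundant beta genes were not called at 3 h, at -0.25 (SE 0.12) for PCDHB2 and 0.00 (SE 0.14) for PCDHB5, and neither was PCDHB17P (-0.19, SE 0.16).

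The called gamma members were pseudogenes at low levels. PCDHGB9P averaged 0.829 CPM at 0 h and 0.225 at 3 h (log2 change -1.80, SE 0.48, adjusted p = 0.00314 in edgeR), and PCDHGB8P averaged 1.22 and 0.628 CPM (-0.94, SE 0.31, adjusted p = 0.0146 in edgeR). The alpha pseudogene PCDHA14, whose exons lie within those of PCDHA10, averaged 0.6001 CPM at 0 h, 0.6044 at 1 h, 0.199 at 2 h and 0.268 at 3 h (-1.08 at 3 h, SE 0.36). At 2 h and 3 h PCDHA14 stayed at or below 0.373 CPM and PCDHGB9P at or below 0.739. Both passed the filter on low counts mainly through their 0 h and 1 h libraries, so their calls as lower are not independent of that filter. With no filter, the calls of PCDHA14 at 2 h and PCDHGB9P at 3 h remained. PCDHGC3 had a median of 20.7 CPM at 0 h and 19.03 at 3 h, a log2 change of -0.07 (SE 0.10) that was not called.

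The count at 3 h was 10 without wt 0 h replicate 1, without SoF 3 h replicate 2 or without Ctrl 0 h replicate 1, and 9 with no filter on low counts. DESeq2 called 14.

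**Figure D5:**
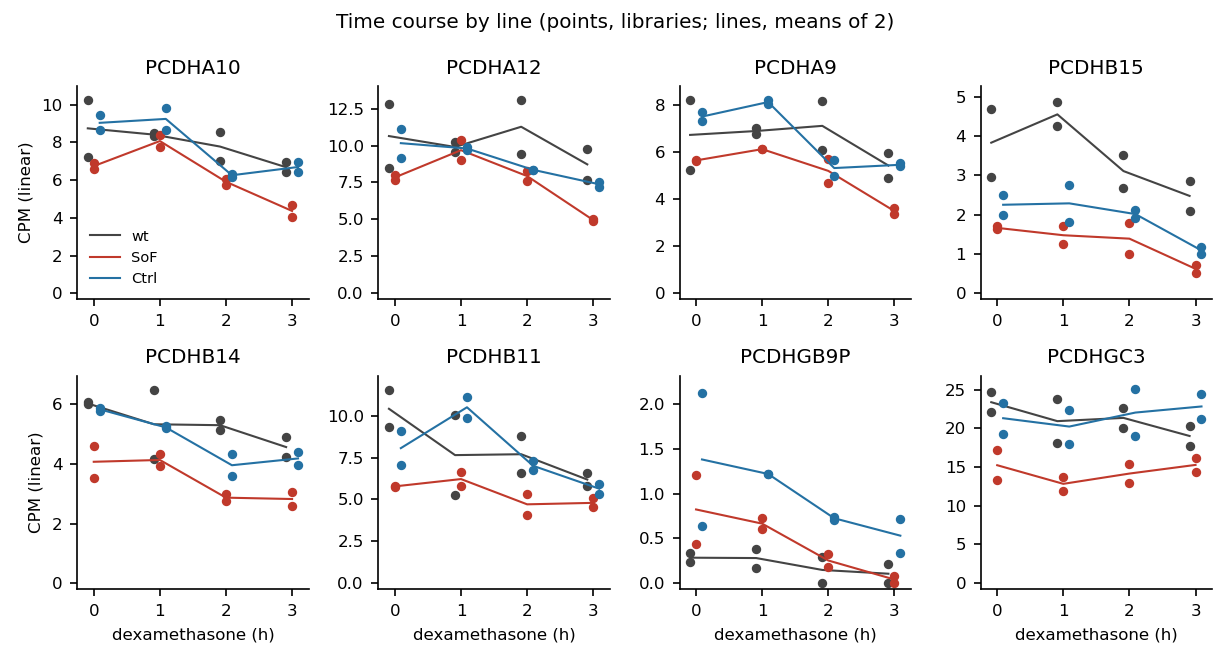
CPM (vertical axis, linear) of 8 members against hours of dexamethasone (horizontal axis), with a point for each library and lines through the means of 2 libraries, coloured by line. PCDHB15 was lower at 3 h than at 0 h in all 3 lines, while PCDHGC3 moved by -0.07 on the log2 scale over the lines.

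Within single lines few calls were made. In wt edgeR called no member at 1, 2 or 3 h (0, 3 and 6 at an unadjusted p under 0.05), against 0.156%, 4.6% and 10.7% of all genes. The shares called higher in wt were 0.118%, 3.39% and 6.6%, and those called lower were 0.0381%, 1.22% and 4.12%. In Ctrl it called none either (0, 5 and 4 at an unadjusted p under 0.05), against 0.0465%, 7.95% and 14.2%. The shares called higher in Ctrl were 0.0465%, 5.58% and 8.58%, and those called lower at 2 h and 3 h were 2.38% and 5.6%. DESeq2 called none in wt or Ctrl. In SoF edgeR called none at 1 h and 2 h (1 and 1 at an unadjusted p under 0.05, and 0 in DESeq2). The shares of all genes were 0.165% at 1 h (0.161% higher, 0.00423% lower) and 5.68% at 2 h (4.2% higher, 1.48% lower). At 3 h 5 members were called in SoF, all lower, against 19.3% of all genes (11.2% higher, 8.11% lower).

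The 5 members lower in SoF at 3 h were PCDHGB9P, PCDHB15, PCDHA10, PCDHA12 and PCDHA9. PCDHA12 in SoF had 7.67 and 8.02 CPM at 0 h and 5.01 and 4.90 at 3 h, a log2 change of -0.66 (SE 0.23, adjusted p = 0.0447 in edgeR). In wt it had 12.8 and 8.46 CPM at 0 h and 9.76 and 7.68 at 3 h (-0.29, SE 0.21), where the libraries overlapped. PCDHB15 changed by -1.40 (SE 0.43) in SoF, -1.06 (SE 0.38) in Ctrl and -0.62 (SE 0.31) in wt. PCDHGB9P had 0.442 and 1.203 CPM in SoF at 0 h and 0.0807 and 0 at 3 h, too few counts to give its change a size.

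Of these 5 calls the count was 2 with no filter on low counts, 1 in DESeq2, 1 when the 8 SoF libraries were fitted alone, 1 without SoF 0 h replicate 1, and 0 without SoF 0 h replicate 2, without SoF 3 h replicate 1 or without SoF 3 h replicate 2.

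Whether the 3 h response differed between lines was tested directly. No member was called for SoF against wt, SoF against Ctrl or Ctrl against wt (edgeR, with 2, 1 and 0 members at an unadjusted p under 0.05, and 0 in DESeq2, which gave an adjusted p to only 1 member for SoF against Ctrl), against 0%, 0.0127% and 0% of all genes. For PCDHB15 the response in SoF differed from that in wt by -0.78 (SE 0.53), and for PCDHA10 by -0.23 (SE 0.29). PCDHB6, at 34 counts in all SoF libraries and singled out after its values were seen, was the single member at an unadjusted p under 0.05 for SoF against Ctrl (a difference of 2.25, SE 0.91).

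Other cadherins were read from a list of 24 genes, of which 17 were tested. At 3 h over the lines 5 were called higher and 6 lower, with a median log2 change of -0.09. Of all genes tested, 23.2% were called higher and 21.9% lower. PCDH7, a non-clustered protocadherin, rose by 1.71 (SE 0.11), and CDH2, which encodes N-cadherin, rose by 0.69 (SE 0.09). DCHS2 and PCDH1 changed by -1.04 (SE 0.15) and 1.08 (SE 0.19). Between Ctrl and wt, 1 of 16 was called higher (FAT1, 0.34, SE 0.06) and 3 lower (FAT3, -0.91, CDH4, -0.48, and PCDH18, -0.40). Of all genes tested there, 2.11% were called higher and 2.66% lower.

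Factors known to shape or silence these clusters (28 genes, 27 tested) were called higher in 8 cases and lower in 8 at 3 h. Over all genes the shares were 23.2% higher and 21.9% lower. The median log2 change of the factors was 0.06. EHMT2, a histone H3 lysine methyltransferase, rose by 1.16 (SE 0.11), and the DNA methyltransferase DNMT3A rose by 1.12 (SE 0.12). TET3 rose by 0.98 (SE 0.10) while TET1 fell by 1.45 (SE 0.18), both enzymes that oxidise methylated cytosine. CTCF rose by 0.28 (SE 0.06) and the cohesin subunit RAD21 was called lower (-0.21, SE 0.09). Between Ctrl and wt edgeR called none of the 27, against 4.77% of all genes.

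Of 17 partners of the cytoplasmic domains and proteases that cut these proteins, 16 were tested. At 3 h 6 were called higher and 2 lower, against 23.2% and 21.9% of all genes. CYFIP1, a subunit of the WAVE complex, rose by 0.63 (SE 0.07), and AXIN1 rose by 0.71 (SE 0.09). CYFIP2 was called lower at 3 h (-0.40, SE 0.10) and lower in Ctrl than in wt (-0.46, SE 0.12). No gene of the 3 lists was called in edgeR for a different 3 h response between lines, against at most 0.0127% of all genes.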

How the data were processed

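The members, the gene lists and the tests were chosen with earlier results of these data known. The authors removed duplicate molecules with UMI-tools 1.1.2, trimmed reads with Trim Galore 0.6.6, aligned them to hg38 with STAR 2.7.3a and counted reads per gene with featureCounts on GENCODE 39, and the deposited values are these raw counts. The deposited count table is labelled as stranded exon counts, and the setting used is not given in the sources used here. Symbols came from GENCODE 44 (61369 of 61533 identifiers matched), and promoter sequence from RefSeq.

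Counts were fitted with edgeR 4.0.16 (quasi-likelihood test, limma 3.58.1, R 4.3.3) after TMM scaling and filterByExpr (minimum count 10, total 15), with Benjamini-Hochberg adjustment over all genes tested and calls at an adjusted p under 0.05. Separate fits used the 12 groups of line and time (23651 genes), line plus time (22467) and line alone (21122). The SE of a log2 change was its size divided by the root of F. Alternatives were DESeq2 1.42.0, DESeq2 size factors, no filter, a replicate block, leaving out each library, fits on the libraries of a single line, an additive time term and, added after the data were seen, shared reads counted once.

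Named members were PCDHB17P, the C-type genes, the 6 highest by mean CPM in each cluster and up to 6 called in each comparison by smallest p, with the neighbours and up to 4 called genes of each list. PCDHB6, PCDHB9, PCDHB10, PCDHB19P, PCDH1 among the neighbours, CTCF and RAD21 were named after their values were seen. Library totals ran from 8106036 to 15820806 counts, which limits precision for members with few reads.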

Additional observations from a re-analysis of the deposited data

Results flagged for a closer look

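Of 102 groups of 8 libraries checked for a value far from the rest (the gap to the next value over the whole range, against Dixon's critical value), 3 were flagged, and chance flags about 1 in 20. PCDHGB4 in wt was highest in the second 0 h library at 17.0 CPM, where the next was 14.7 and the median 13.6 (ratio 0.567). PCDHB12 in SoF was highest in the second 0 h library at 5.41 CPM, where the next was 3.47 and the median 3.05 (ratio 0.688). The summed beta level in SoF was lowest in the second 2 h library at 44.15 CPM, where the next was 55.5 and the median 57.0 (ratio 0.593).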

How the results depend on the processing

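With shared reads counted once, the log2 ratio of the alpha sum became -0.075 for SoF against wt and -0.11 for SoF against Ctrl, and that of the gamma sum -0.23 for SoF against wt, since each shared read then enters a single time. The gamma ratio of SoF to Ctrl counted that way was -0.68, and the full gamma sum gave -0.98 without replicate 1 and -0.55 without replicate 2. With no filter on low counts, calls numbered 1 in wt at 2 h, 2 in SoF at 3 h, 9 at 3 h over the lines and 6 between Ctrl and wt. Calls in SoF at 3 h numbered 1 in DESeq2, 1 from the 8 libraries of that line alone, and 0 to 1 with a library left out. Calls at 3 h over the lines ranged from 10 to 19 with a library left out, and those between Ctrl and wt from 7 to 11. An additive time term gave 24 calls between Ctrl and wt, with 3965 of 21122 genes called in all. The causes of these shifts were not tested.

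The replicate numbers were not treated as pairing the samples, since only 21 of 66 pairs of groups had correlated deviations above 0.1 (range -0.221 to 0.568), although same-numbered 0 h libraries of the 3 lines did deviate together (0.394 to 0.568). With the number as a replicate block, calls were 1 in wt at 3 h, 5 in SoF at 3 h, 8 at 2 h and 16 at 3 h over the lines, and 11 between Ctrl and wt. For 23 results on named members, 505 of 554 alternatives kept direction and side of the threshold, 49 lost the call and 0 reversed. Members under about 1 CPM rest on few reads, and single calls among them are imprecise.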
